A study of Mus musculus with 6 samples.

Results

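The protein synthesis machinery was examined through the genes of translation initiation factors (symbols that start with Eif and a digit), elongation factors (symbols that start with Eef) and tRNA synthetases (1 to 3 letters followed by ars, with an optional 1 or 2). Eif2s3y, a gene of the Y chromosome, was left out. The rule found 36 genes of the 6041 genes named on the array, on 39 of 6856 probes. Neocortex RNA of 6 null mutant embryos at embryonic day 14, which the labels call synaptically silent, was hybridised on 6 arrays of 2 colours, 1 embryo per array. The other channel of each array held RNA of 6 wild-type animals, pooled and shared by all arrays. All animals, mutant and wild-type, are labelled C57BL/6. The mutant RNA was labelled with cy3 on replicates 1, 2 and 3 and with cy5 on replicates 4, 5 and 6. The pool is 1 control sample, so the spread between wild-type animals was not measured. The number of arrays limits the precision.

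Translation starts when initiation factors bring the small ribosomal subunit and the initiator tRNA to the capped end of an mRNA and move it to the start codon. Elongation factors then deliver the charged tRNAs and move the ribosome along, and tRNA synthetases attach each amino acid to its tRNA. Growing cells need large amounts of this machinery, and in the embryonic cortex dividing progenitors and neurons that extend axons both use it. Cells adjust its rate mainly by phosphorylation of eIF2 and of the proteins that bind the cap-binding factor eIF4E, so that mRNA ratios show supply and not activity.

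The deposited value of a probe is a log ratio of its 2 channels, read here as log2. The sources used here do not state which channel is the numerator, and base 2 was assumed. Values are therefore given as positive or negative, and no gene is called higher or lower in the mutant. Estimates and their counts are given with the signs as deposited and with replicates 1 to 3, which share a dye orientation, turned. The first form holds if the mutant was the numerator on every array. The second holds, up to a common sign, if 1 dye was the numerator on every array. In the form that does not hold, the mutant ratios of the 2 orientations enter with opposite signs. Its estimates then measure the difference between the dye orientations, from which the dye bias of a probe cannot be told apart. A ratio holds no level, so the labelled tissue could not be checked by its defining markers. In bulk tissue, fewer cells of a type and less RNA per cell cannot be told apart.

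The arrays held between 4396 and 5678 values each. Replicates 3 and 4 stood apart, with standard deviations of 1.09 and 0.62 over all probes against 0.35 to 0.52 on the others. Over all probes these 2 arrays correlated at 0.59 (Pearson, 3875 probes), and the mutant carried different dyes on them. Replicate 3 correlated at -0.20 and -0.19 with replicates 1 and 2, and replicate 4 at -0.26 with replicate 5 (4120, 4154 and 4375 probes). The lowest value of any pair was -0.365, between replicates 3 and 5 (4296 probes). Within an orientation, replicates 1 and 2 correlated at 0.36 (4772 probes) and replicates 5 and 6 at 0.21 (5675 probes), while replicates 4 and 6 stood at -0.08. Across orientations, replicates 1 and 2 correlated with replicates 5 and 6 at -0.07 to 0.055 over all probes (Pearson). By rank (Spearman) the same pairs were all negative over all probes, from -0.27 to -0.07. Over the member probes these correlations ran from -0.61 to -0.26 (Pearson) and from -0.53 to -0.42 (Spearman). Estimates and their counts are therefore also given from the 4 arrays outside replicates 3 and 4, in both forms of the signs. The labels name no slide or scan, and p-values measure the spread between these 6 arrays.

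Ratios of translation genes lay mostly on 1 side of 0 on 5 of the 6 arrays, but not on the same side. On replicate 1 their median ratio was 0.24, with 30 of 39 probes positive, and on replicate 2 it was 0.22, with 31 of 38 positive. On replicate 3 the median was -0.84, with 34 of 36 negative, and on replicate 4 it was -0.55, with 34 of 37 negative. Replicate 5 lay at -0.0016, with 19 positive and 20 negative. Replicate 6 lay at -0.27, with 36 of 39 negative. The medians of all probes were 0.05, 0.04, -0.23, -0.13, 0.04 and -0.0049 on replicates 1 to 6, nearer to 0 than those of the translation genes on every array except replicate 5.

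**Figure D1:**
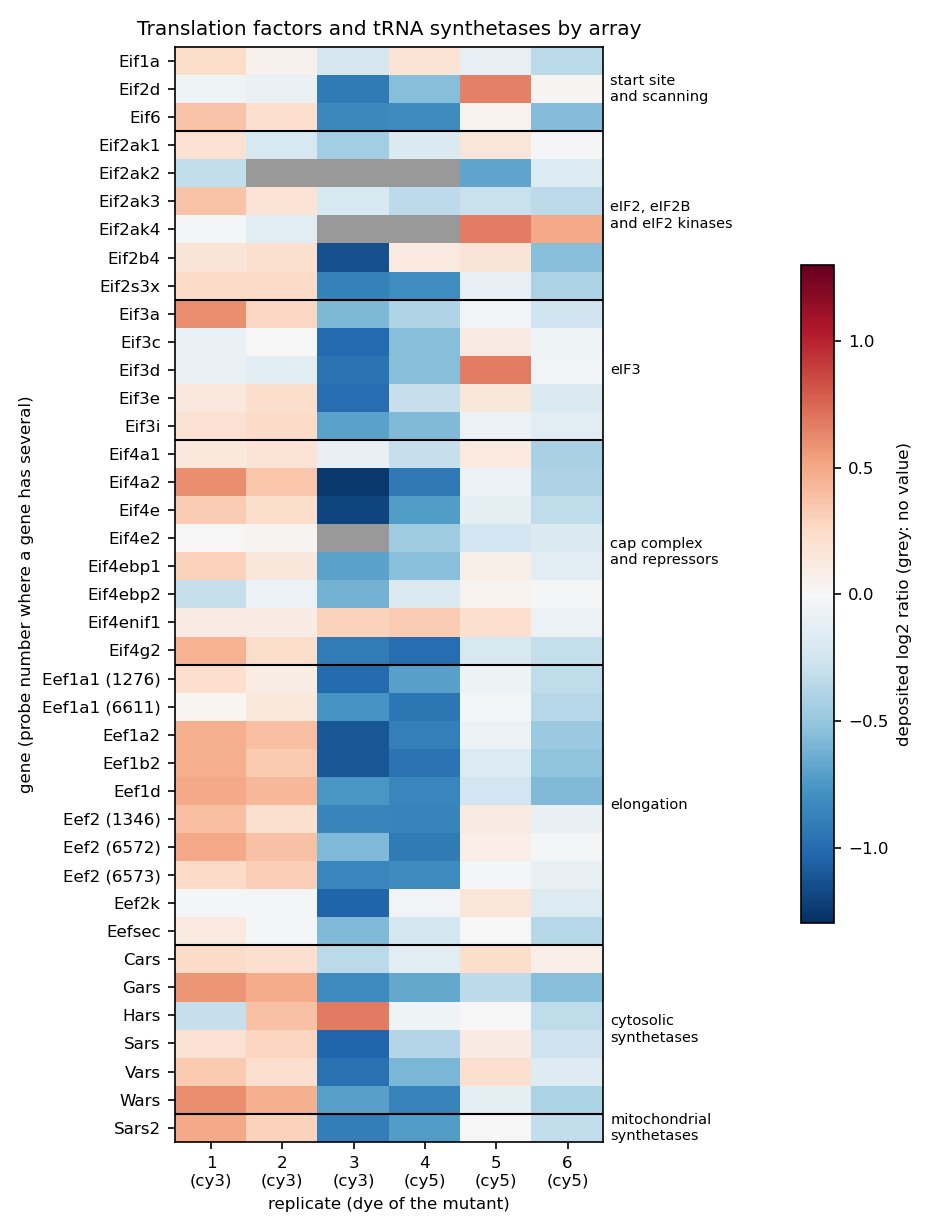
Deposited log2 ratio (colour) of each translation factor and synthetase probe (rows, grouped by role) on the 6 arrays (columns, with the dye of the mutant); grey marks a missing value. Replicates 1 and 2 are mostly positive and replicates 3, 4 and 6 mostly negative, with Hars and Eif4enif1 positive on replicate 3.

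Most of these genes shared 1 sign profile, positive on replicates 1 and 2 and negative on replicates 3, 4 and 6. It was seen in 24 of the 36 member probes with values on these arrays, against 22.8% of the 3763 probes of the whole array (857 probes). The profile was chosen after the values were seen, and the share is a description with no test. By role it held for 8 of 10 probes of the elongation group, 5 of 7 of the cap complex and its repressors and 4 of 6 cytosolic synthetases. It also held for 3 of 5 eIF3 subunits, 2 of 4 of the eIF2 group and 1 of 3 start site factors, and for Sars2. The cytosolic ribosomal proteins, chosen for comparison, showed it in 32 of 41 probes, the mitochondrial ribosomal proteins in 4 of 7 and the proteasome subunits in 9 of 26. The median ribosomal protein ratios were 0.28, 0.18, -0.89, -0.49, -0.0045 and -0.35 on replicates 1 to 6. Those of the proteasome were 0.04, 0.04, -0.96, -0.51, 0.06 and -0.08, so that on replicates 1, 2, 4 and 6 they lay nearer to 0 than those of the translation genes. No difference between these groups was tested.

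**Figure D2:**
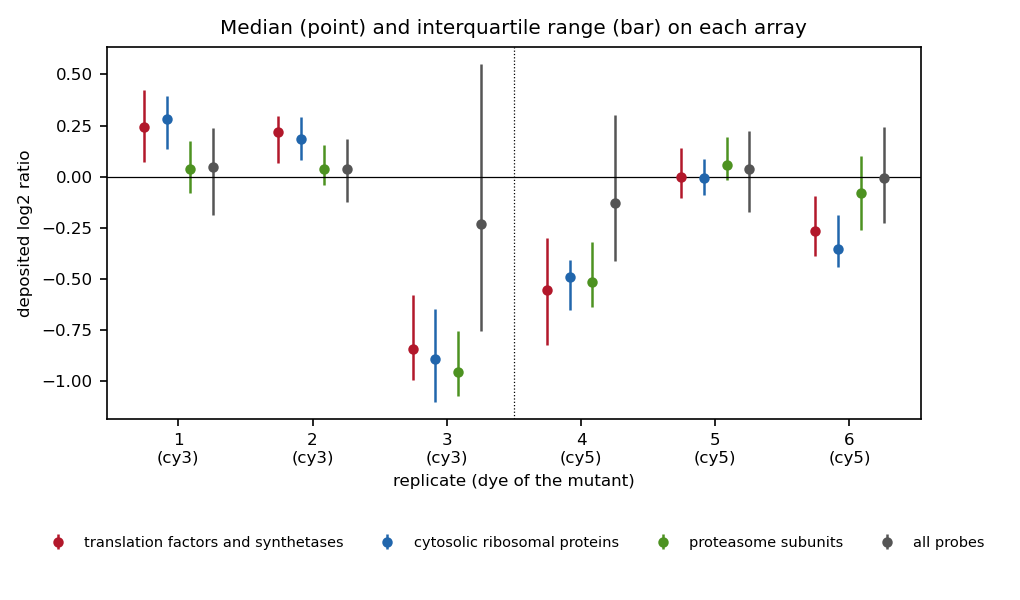
Median (point) and interquartile range (bar) of the deposited log2 ratio on each array for the translation factors and synthetases, cytosolic ribosomal proteins, proteasome subunits and all probes; the dotted line divides the dye orientations. The translation genes lie at 0.24 and 0.22 on replicates 1 and 2 and at -0.84, -0.55 and -0.27 on replicates 3, 4 and 6, close to the ribosomal proteins.

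No translation gene passed the test. Probes needed 2 or more values per dye orientation, and limma set the mean ratio over both orientations against 0. Of 38 member probes tested, 0 had an adjusted p under 0.05, as for 0% of all 4958 probes, and the smallest adjusted p of a member was 0.921. Also 0 members had an unadjusted p under 0.05, against 1.77% of all probes. The estimates were below 0 for 34 of 38 member probes, where 56.7% of all probes lay below 0. Their median was -0.18, against -0.03 over all probes. With replicates 1 to 3 turned, 0 members passed (0% of all probes) and 0 had an unadjusted p under 0.05 (4.6% of all probes). There 27 of 38 lay below 0, against 47.0% of all probes, with a median of -0.09. Among the 36 probes with 6 values, 0 had 1 sign on all 6 arrays, as deposited or turned, where 1.44% and 3.91% of all complete probes had.

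Leaving out replicates 3 and 4 turned the balance of signs. As deposited, 12 of 38 estimates lay below 0, against 37.4% of all probes, and the median was 0.04, close to the 0.04 of all probes. No member passed (0.0212% of all probes did, 1 probe), and 3 (probes of Eef2, Eif2ak4 and Cars, all positive) had an unadjusted p under 0.05, against 13.6% of all probes. With replicates 1 and 2 turned, 31 of 38 lay below 0, against 52.2%, with a median of -0.16 against -0.01 over all probes. Here 14 members had an unadjusted p under 0.05, against 23.4% of all probes, and 13 of them were negative, against 12.8%. The other was Eif2ak4, positive. None of the 14 passed the adjusted threshold, nor did any other probe (0%), and the smallest adjusted p of a member in limma was 0.146. This last fit was added after the data were seen. If the mutant was the numerator on every array, its estimates measure the difference between the dye orientations and not the mutant. The 13 were probes of Eef1b2, Eef1a2, Eef1d, Eef2, Eif4a2, Eif4e, Eif4g2, Eif2s3x, Eif2ak3, Eif3a, Gars, Wars and Sars2. In both fits without replicates 3 and 4 the Eef2 probe was 6572, and Eef2 probes 1346 and 6573 missed that threshold. Of the ribosomal proteins, 19 of 42 probes were negative at that threshold in the same fit, and of the proteasome subunits 1 of 30.

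**Figure D3:**
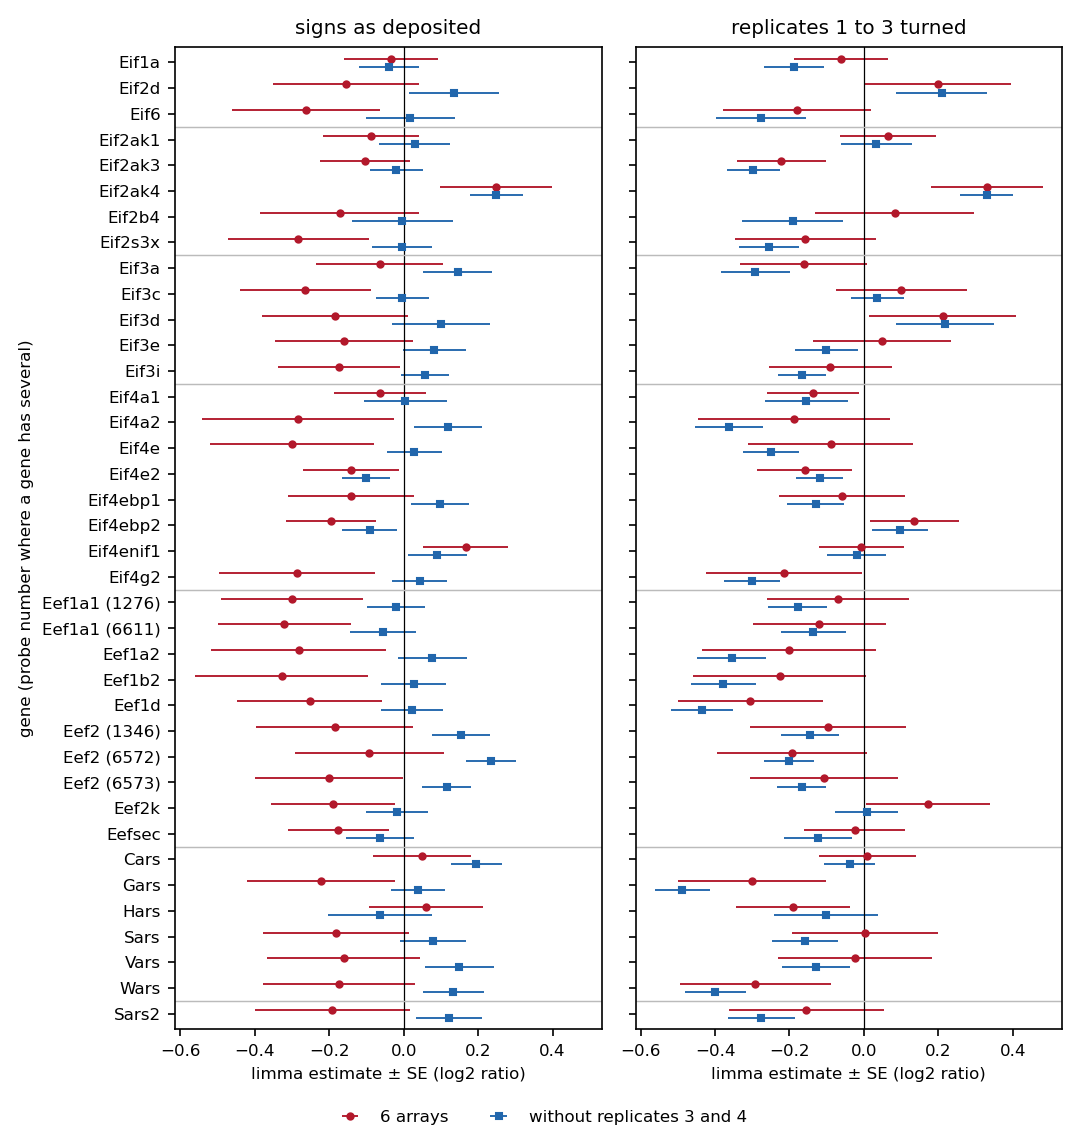
Limma estimate of the log2 ratio with its SE for each tested probe, with signs as deposited (left) and with replicates 1 to 3 turned (right); circles are fits of 6 arrays and squares fits without replicates 3 and 4. On the left most circles lie below 0 and most squares near or above it; on the right 27 of 38 circles and 31 of 38 squares lie below 0.

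The elongation group held 10 probes of 7 genes, among them the kinase Eef2k. All 10 were negative on replicates 3, 4 and 6. With the signs as deposited all 10 estimates lay below 0, against 56.7% of all probes. Their median was -0.23, with a range from -0.33 to -0.09. Turned, 9 of 10 lay below 0, against 47.0% of all probes, with a median of -0.11, and Eef2k lay above. Without replicates 3 and 4, 4 of 10 lay below 0 as deposited, against 37.4% of all probes, with a median of 0.02. Turned, the same arrays gave 9 of 10 below 0, against 52.2% of all probes, with a median of -0.17. Eef1b2 encodes an exchange factor that recharges the tRNA carrier eEF1A with GTP. Its ratios were 0.47, 0.34 and -1.11 on the cy3 arrays (mutant in cy3) and -0.96, -0.18 and -0.52 on the cy5 arrays. Replicates 1 and 2 were its only positive arrays, and its values in the 2 orientations overlapped. Its estimate was -0.33 ± 0.23 (SE, n = 6; limma adjusted p = 0.921), or -0.23 ± 0.23 turned. Without replicates 3 and 4 it was 0.03 ± 0.09 (SE, n = 4), or -0.38 ± 0.09 turned (adjusted p = 0.148).

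Eef1d, another subunit of this exchange factor, had 0.49, 0.43 and -0.76 in cy3 and -0.85, -0.25 and -0.57 in cy5. Its estimate was -0.25 ± 0.19 (SE, n = 6), or -0.30 ± 0.19 turned, and from the 4 arrays 0.02 ± 0.08 or, turned, -0.44 ± 0.08 (SE, n = 4). Eef1a1, the tRNA carrier of most cells, had 2 probes. Probe 6611 lay at 0.03, 0.13, -0.76, -0.94, -0.01 and -0.37 on replicates 1 to 6, and probe 1276 at 0.21, 0.10, -1.003, -0.71, -0.07 and -0.33. The 2 probes shared a sign on every array and differed by at most 0.24. Probe 6611 had the smallest unadjusted p in limma among the member probes, 0.114, with an estimate of -0.32 ± 0.18 (SE, n = 6), or -0.12 turned. On the 4 arrays this became -0.06 ± 0.09 (SE, n = 4), or -0.14 turned. Eef1a2, the isoform that replaces Eef1a1 in mature neurons and muscle, had 0.47, 0.39 and -1.11 in cy3 and -0.89, -0.08 and -0.48 in cy5. Its estimate was -0.28 ± 0.23 (SE, n = 6), or -0.20 turned, and 0.08 ± 0.09 (SE, n = 4) on the 4 arrays, or -0.36 turned. Eef1a2 exceeded the mean of the Eef1a1 probes by 0.35 and 0.28 on replicates 1 and 2 and lay below it on the other 4, by 0.04 to 0.22. That difference was larger than the gap between the 2 Eef1a1 probes on replicates 1, 2 and 6 and smaller on replicates 3, 4 and 5.

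Eef2, which moves the ribosome by 1 codon, had 3 probes, and they differed by 0.07 to 0.29 on an array. Probe 1346 lay at 0.39, 0.20, -0.86, -0.87, 0.11 and -0.09 on replicates 1 to 6, probe 6572 at 0.49, 0.38, -0.57, -0.92, 0.08 and -0.02, and probe 6573 at 0.25, 0.32, -0.85, -0.82, -0.01 and -0.09. The 3 probes agreed in sign on every array but replicate 5. Their estimates were -0.19 ± 0.21, -0.09 ± 0.20 and -0.20 ± 0.20 (SE, n = 6), or -0.10, -0.19 and -0.11 turned. Without replicates 3 and 4 they became 0.15, 0.23 and 0.12, with an adjusted p of 0.310 for probe 6572 in limma, or -0.14, -0.20 and -0.17 turned. Eef2k, the kinase that inactivates eEF2, did not share the profile of its substrate. It had -0.02, -0.03 and -1.04 in cy3 and -0.03, 0.16 and -0.18 in cy5, so that replicate 3 alone was far from 0. Eefsec, which delivers selenocysteine, ran from -0.57 on replicate 3 to 0.13 on replicate 1, and only that highest value was positive.

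**Figure D4:**
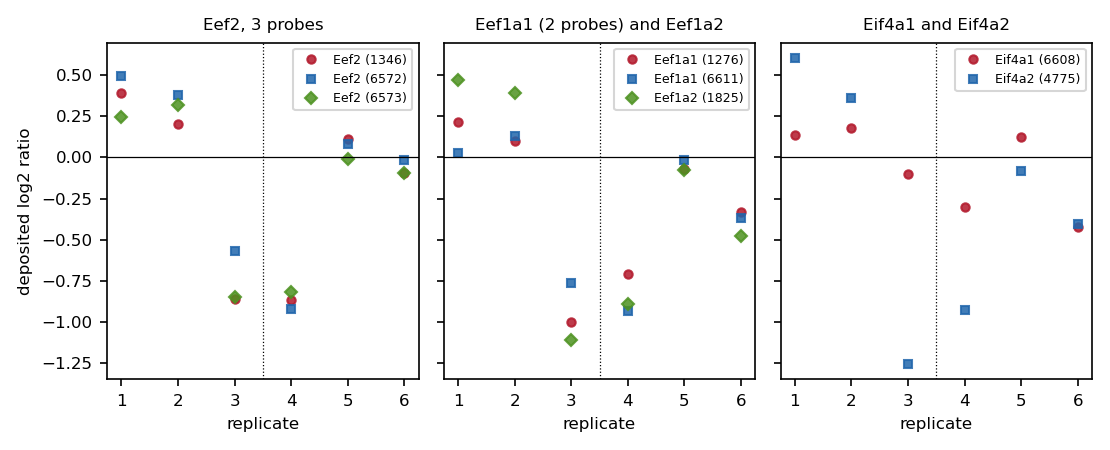
Deposited log2 ratio on each array for the 3 probes of Eef2, the 2 probes of Eef1a1 with Eef1a2, and the helicases Eif4a1 and Eif4a2; the dotted line divides the dye orientations. Probes of 1 gene lie within 0.29 of each other on every array, while Eif4a1 and Eif4a2 differ by 1.16 on replicate 3.

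Promoter windows of 300 bases around the annotated start (250 before and 50 after, RefSeq, build GRCm38.p6) were held for 25 of the 36 genes, 5 of them with several windows. They were searched on both strands for CCGGAAG, the core bound by ETS factors, which is common at housekeeping promoters. The search also covered TGACGTCA, the cyclic AMP response element bound by CREB, CACGTG, the E-box bound by Myc, and TGATGNAA, a form of the amino acid response element bound by ATF4. In the order named, 11, 1, 5 and 3 of the 25 genes held a match in a window. Over the 4778 array genes with a window the shares were 13.2%, 2.7%, 10.8% and 2.93%, and over all 32851 windows 8.86%, 1.79%, 7.15% and 3.97%. The ETS core was in 44% of the translation genes and in 37.5% of the 32 cytosolic ribosomal protein genes with a window. Genes with several windows had more chances of a match, and no share was tested.

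The windows below show 70 bases before to 20 after the start, 5′ to 3′ on the strand of the gene, with matches in capitals. The first 7 genes share the sign profile described above, as does Eif4a1, and Eif3c and Eif3d do not. Matches occurred on both sides of that division. The windows are Eef1b2 chr1:63176761-63176850 (+), Eef1a2 chr2:181156996-181157085 (-), Eef1a1 chr9:78481705-78481794 (-), Eef2 chr10:81176561-81176650 (+), Eif4a2 chr16:23107398-23107487 (+), Eif2s3x chrX:94212632-94212721 (-), Gars chr6:55037931-55038020 (+), Eif4a1 chr11:69672404-69672493 (-), Eif3c chr7:126566347-126566436 (-) and Eif3d chr15:77970805-77970894 (-).
Eef1b2: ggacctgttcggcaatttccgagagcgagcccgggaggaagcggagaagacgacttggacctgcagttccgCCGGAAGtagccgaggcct
Eef1a2: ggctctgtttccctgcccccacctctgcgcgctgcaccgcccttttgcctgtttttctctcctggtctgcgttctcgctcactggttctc
Eef1a1: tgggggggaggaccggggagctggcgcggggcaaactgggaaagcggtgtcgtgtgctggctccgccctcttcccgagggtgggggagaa
Eef2: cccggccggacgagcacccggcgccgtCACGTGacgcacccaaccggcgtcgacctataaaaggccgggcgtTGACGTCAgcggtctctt
Eif4a2: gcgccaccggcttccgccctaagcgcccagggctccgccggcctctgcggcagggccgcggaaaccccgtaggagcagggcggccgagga
Eif2s3x: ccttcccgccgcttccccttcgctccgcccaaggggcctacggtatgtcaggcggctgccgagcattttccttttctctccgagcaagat
Gars: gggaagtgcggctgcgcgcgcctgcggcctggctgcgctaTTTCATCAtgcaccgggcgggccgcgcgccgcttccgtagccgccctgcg
Eif4a1: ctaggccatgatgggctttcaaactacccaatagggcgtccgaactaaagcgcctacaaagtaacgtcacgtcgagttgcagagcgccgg
Eif3c: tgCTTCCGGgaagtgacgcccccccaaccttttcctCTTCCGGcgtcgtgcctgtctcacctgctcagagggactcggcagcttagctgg
Eif3d: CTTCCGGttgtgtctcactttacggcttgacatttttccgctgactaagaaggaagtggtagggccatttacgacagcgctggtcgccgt

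The window of Eef2 held the only cyclic AMP response element among these genes, from base 3 of the transcript, and an E-box before the start. That of Gars held an amino acid response element in the reverse orientation, 30 bases before the start. The ETS core lay at the start of Eef1b2, before the start of Eif3d and, in 2 copies, before the start of Eif3c. Outside the printed bases, the 300-base windows also held an ETS core in Gars, an amino acid response element in Eif2s3x and an E-box in Eif4a1. The genes printed were picked by hand.

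The cap complex recruits the ribosome to the mRNA, and its group here also held proteins that restrain or carry eIF4E. Of 8 probes in this group, 7 had estimates below 0 as deposited (median -0.17), against 56.7% of all probes. Turned, 7 lay below 0 (median -0.11), against 47.0%. The 1 above 0 was Eif4enif1 as deposited and Eif4ebp2 turned. Eif4a1, Eif4a2, Eif4e and Eif4g2 lay below 0 in both forms. On the 4 arrays, 2 of 8 lay below 0 as deposited (median 0.04), against 37.4% of all probes (median 0.04). Turned, 7 of 8 lay below 0 (median -0.14), against 52.2% of all probes. Eif4e, the cap-binding subunit, had 0.33, 0.22 and -1.19 in cy3 and -0.73, -0.11 and -0.33 in cy5. Its estimate was -0.30 ± 0.22 (SE, n = 6), or -0.09 turned, and from the 4 arrays 0.03 ± 0.07 (SE, n = 4), or -0.25 turned. Eif4g2, a scaffold related to eIF4G that cannot bind eIF4E, had 0.45, 0.23 and -0.91 in cy3 and -0.99, -0.20 and -0.31 in cy5, with -0.29 ± 0.21 (SE, n = 6), or -0.21 turned. Its estimate from the 4 arrays was 0.04 ± 0.08 (SE, n = 4), or -0.30 turned. Both lay above 0 on replicates 1 and 2 alone.

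The RNA helicases Eif4a1 and Eif4a2 are close paralogues. Eif4a2, the form enriched in brain, had 0.61, 0.36 and -1.25 in cy3 and -0.93, -0.08 and -0.40 in cy5. Eif4a1 had 0.14, 0.18 and -0.10 in cy3 and -0.30, 0.13 and -0.43 in cy5. On replicate 3 Eif4a2 held the lowest ratio among the members, 1.16 below Eif4a1, while on replicate 6 the 2 differed by 0.02. Their estimates were -0.28 ± 0.26 and -0.06 ± 0.12 (SE, n = 6), or -0.19 and -0.14 turned. The 4 arrays gave Eif4a2 0.12 ± 0.09 and Eif4a1 0.0047 ± 0.11 (SE, n = 4), or -0.36 and -0.15 turned. The difference between the genes was not tested.

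Among the proteins that restrain eIF4E, Eif4ebp1 had 0.30, 0.15, -0.70, -0.54, 0.08 and -0.14 on replicates 1 to 6. Eif4ebp2, the main form of the brain, had -0.30, -0.07, -0.62, -0.19, 0.04 and -0.03. The 2 therefore had opposite signs on replicates 1 and 2, with a difference of 0.61 and 0.22. Eif4ebp2 had an estimate of -0.20 ± 0.12 (SE, n = 6) as deposited and 0.14 ± 0.12 turned, and from the 4 arrays -0.09 ± 0.07 (SE, n = 4), or 0.10 turned. Eif4e2, a cap-binding protein that represses translation, lacked a value on replicate 3 and ran from -0.46 to 0.04 on the other arrays. Eif4enif1, which carries eIF4E into the nucleus, was positive on 5 of 6 arrays, with 0.11, 0.11, 0.30, 0.34, 0.22 and -0.07. Its estimate was 0.17 ± 0.11 (SE, n = 6; limma adjusted p = 0.921), or -0.0069 turned, and from the 4 arrays 0.09 ± 0.08 (SE, n = 4), or -0.02 turned.

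The eIF3 complex bridges the ribosome and the cap complex, and 5 of its subunits were measured on all arrays. All 5 were negative on replicates 3, 4 and 6, with medians of -0.96, -0.55 and -0.14. The 5 estimates lay between -0.26 and -0.06 as deposited. Turned, 2 of 5 lay below 0, against 47.0% of all probes. Without replicates 3 and 4, 1 of 5 lay below 0 as deposited, against 37.4%, and 3 of 5 turned, against 52.2%. Eif3a, the largest subunit, had 0.61, 0.27 and -0.58 in cy3 and -0.39, -0.03 and -0.26 in cy5. It held the highest ratio of all members on replicate 1. Eif3i had 0.20, 0.24, -0.70, -0.58, -0.07 and -0.14 on replicates 1 to 6 and lay closest to the median of the other members, with a mean distance of 0.08. Eif3e followed a like course, from 0.23 on replicate 2 to -0.99 on replicate 3.

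Eif3d and Eif3c departed from that course on the arrays outside replicates 3 and 4. Eif3d, a subunit that can itself bind a cap, had -0.08, -0.15 and -0.96 in cy3 and -0.55, 0.67 and -0.03 in cy5. It was the highest translation gene on replicate 5, where Eif3i lay 0.74 lower. Eif3c had -0.09, 0.01, -1.01, -0.55, 0.12 and -0.06 on replicates 1 to 6. Its estimate was -0.26 ± 0.18 (SE, n = 6), or 0.10 turned, and from the 4 arrays -0.0041 ± 0.07 (SE, n = 4), or 0.04 turned. Subunits of this 1 complex thus had ratios of both signs on replicates 1, 2 and 5.

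eIF2 brings the initiator tRNA, eIF2B reloads it with GTP, and 4 kinases stop this by phosphorylating eIF2 under stress. Eif2s3x, the gamma subunit, encoded on the X chromosome, had 0.25, 0.25 and -0.88 in cy3 and -0.80, -0.10 and -0.42 in cy5, with an estimate of -0.28 ± 0.19 (SE, n = 6), or -0.16 turned. From the 4 arrays it was -0.0042 ± 0.08 (SE, n = 4), or -0.26 turned. Eif2b4, a subunit of eIF2B, was far from 0 on replicate 3 at -1.14 and on replicate 6 at -0.56 and lay between 0.12 and 0.20 on the rest.

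The 4 eIF2 kinases differed in sign from each other on replicates 1, 2, 5 and 6. Eif2ak3 (PERK), the kinase of endoplasmic reticulum stress, had 0.37, 0.18 and -0.20 in cy3 and -0.34, -0.29 and -0.34 in cy5. It was negative on all 3 cy5 arrays. Its estimate was -0.10 ± 0.12 (SE, n = 6), or -0.22 ± 0.12 turned, and from the 4 arrays -0.02 ± 0.07 (SE, n = 4), or -0.30 turned. Eif2ak4 (GCN2), the kinase of amino acid shortage, had no value on replicates 3 and 4. It lay at -0.02 and -0.15 on replicates 1 and 2 and at 0.66 and 0.50 on replicates 5 and 6, and was the highest member on replicate 6. With 2 values per orientation, those of the 2 orientations did not overlap. This was not particular to Eif2ak4. On the same 4 arrays the values of Eif2ak3, Gars, Wars and Eef1b2, among others, did not overlap either, with the opposite order. The share of all probes that separate in this way was not counted. The estimate of Eif2ak4 was 0.25 ± 0.15 (SE, n = 4; limma adjusted p = 0.921), or 0.33 ± 0.15 turned (adjusted p = 0.972), the highest of the members in both. With replicates 3 and 4 left out of the fit, its values stayed the same and its SE was 0.07, with an adjusted p of 0.310 in limma, or 0.147 turned. Eif2ak1 (HRI), the kinase of haem shortage, ran from -0.45 on replicate 3 to 0.19 on replicate 1. Eif2ak2 (PKR), the kinase of double-stranded RNA, had values on replicates 1, 5 and 6 only, at -0.32, -0.69 and -0.17, and was the 1 member without enough values for the fit.

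Of the factors of start site choice and subunit joining, Eif6, which keeps the large ribosomal subunit from joining early, had 0.37, 0.22 and -0.84 in cy3 and -0.81, 0.05 and -0.56 in cy5. Its estimate was -0.26 ± 0.20 (SE, n = 6), or -0.18 turned, and from the 4 arrays 0.02 ± 0.12 (SE, n = 4), or -0.28 turned. Eif1a, a scanning factor, stayed between -0.35 and 0.24 on all arrays and had an estimate of -0.03 ± 0.13 (SE, n = 6), or -0.06 turned, and -0.04 ± 0.08 (SE, n = 4) from the 4 arrays, or -0.19 turned. Eif2d, which can deliver tRNA without GTP, had -0.06, -0.09 and -0.92 in cy3 and -0.55, 0.66 and 0.03 in cy5. Its estimate was -0.15 ± 0.20 (SE, n = 6), or 0.20 ± 0.20 turned, where 5 of 6 arrays were positive. From the 4 arrays it was 0.14 ± 0.12 (SE, n = 4), or 0.21 turned. Like Eif3d and Eif2ak4 it had its highest value on replicate 5.

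Of the 6 tRNA synthetases grouped as cytosolic, 4 had estimates below 0 as deposited (median -0.17), against 56.7% of all probes. Turned, 4 lay below 0 (median -0.11), against 47.0%. Without replicates 3 and 4, 1 of 6 lay below 0 as deposited (median 0.11), against 37.4% of all probes. Turned, these arrays gave all 6 below 0 (median -0.14), against 52.2%. Gars, the glycyl enzyme, had 0.57, 0.48 and -0.82 in cy3 and -0.67, -0.34 and -0.56 in cy5. All its cy5 values were negative. Its estimate was -0.22 ± 0.20 (SE, n = 6), or -0.30 ± 0.20 turned. From the 4 arrays it was 0.04 ± 0.07 as deposited (SE, n = 4; limma adjusted p = 0.829). Turned, these arrays gave -0.49 ± 0.07 (SE, n = 4; limma adjusted p = 0.146), the lowest of all members in that fit. Wars, the tryptophanyl enzyme, had 0.61, 0.46 and -0.71 in cy3 and -0.87, -0.12 and -0.41 in cy5, with -0.17 ± 0.20 (SE, n = 6), or -0.29 ± 0.20 turned. Its estimate from the 4 arrays was 0.13 ± 0.08 (SE, n = 4), or -0.40 turned.

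Sars and Vars, the seryl and valyl enzymes, shared the profile with smaller values on replicates 1 and 2. Sars had 0.20, 0.27, -1.03, -0.38, 0.11 and -0.27 on replicates 1 to 6, and Vars 0.34, 0.22, -0.97, -0.60, 0.21 and -0.17. Their estimates were -0.18 ± 0.20 and -0.16 ± 0.21 (SE, n = 6), or 0.0023 and -0.02 turned, and from the 4 arrays 0.08 ± 0.09 and 0.15 ± 0.09 (SE, n = 4), or -0.16 and -0.13 turned. Sars2, the mitochondrial seryl enzyme and the only member placed in the mitochondrial group, had 0.49, 0.30, -0.90, -0.73, 0.01 and -0.32. It lay within 0.35 of Sars on every array.

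Cars and Hars stood apart from the other synthetases. Cars, the cysteinyl enzyme, was positive on 4 arrays, with 0.25, 0.22, -0.35, -0.14, 0.23 and 0.08 on replicates 1 to 6. Its estimate was 0.05 ± 0.13 (SE, n = 6), or 0.0095 turned. From the 4 arrays, all positive as deposited, it was 0.20 ± 0.07 (SE, n = 4; limma adjusted p = 0.349), or -0.04 turned. Hars, the histidyl enzyme, had -0.30, 0.38 and 0.67 in cy3 and -0.06, -0.0016 and -0.33 in cy5. It held the highest member ratio on replicate 3, where the other 5 cytosolic synthetases lay between -1.03 and -0.35. Its estimate was 0.06 ± 0.15 (SE, n = 6), or -0.19 turned, and from the 4 arrays -0.06 ± 0.14 (SE, n = 4), or -0.10 turned.

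Other genes of translation and its control gave no call either. Of 86 listed genes outside the rule, 39 were on the array and 35 probes were tested, with 10 estimates above and 25 below 0 as deposited, a median of -0.05 and 0 past the threshold, where 56.7% of all probes lay below 0. Turned, 14 lay above and 21 below, where 47.0% of all probes lay below. Without replicates 3 and 4, 27 lay above and 8 below as deposited, with a median of 0.06, where 37.4% of all probes lay below 0. Turned, these arrays gave 15 above and 20 below, where 52.2% of all probes lay below. The lowest as deposited were Drg1, a GTPase bound to ribosomes, at -0.39 ± 0.19 (SE, n = 6), and Cyfip2, a partner of the fragile X protein, at -0.34 ± 0.23 (SE, n = 6). The highest as deposited were Aimp1, a scaffold of the synthetase complex, at 0.48 ± 0.27 (SE, n = 6), and the ribosome recycling factor Abce1 at 0.34 ± 0.19 (SE, n = 6). Aimp1 lay at 1.91 on replicate 3 and Cyfip2 at -1.91. Turned, Drg1 stood at -0.23, Cyfip2 at 0.47, Aimp1 at -0.24 and Abce1 at -0.18. Without replicates 3 and 4 they stood at -0.28, -0.05, 0.10 and 0.08 in that order, or -0.39, 0.22, -0.02 and -0.19 turned. The list of the mTOR pathway and the integrated stress response had medians of -0.01, 0.06, -0.53, -0.29, 0.11 and 0.10 on replicates 1 to 6, and was positive on replicate 6 where the translation genes were negative.

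Cell type markers also differed between these arrays. The 9 measured neuron markers of 12 had medians of -0.12, 0.24, -0.99, -0.18, 0.07 and -0.13 on replicates 1 to 6. The 9 measured neocortical progenitor markers of 11 had 0.28, 0.22, 0.38, 0.19, 0.00019 and -0.23. The 4 erythroid markers of 9 stayed between -0.20 and 0.12. Interneuron markers, 6 of 6 genes, ran from -0.56 on replicate 1 to 0.35 on replicate 3, and meninges and vessel markers, 8 of 10 genes, from -0.44 on replicate 3 (4 values) to 0.40 on replicate 6. Microglia markers, 6 of 7 genes, ran from -0.50 on replicate 3 to 1.24 on replicate 4, with 3 values on each. The part of these cell types in the ratios of the translation genes was not tested.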

How the data were processed

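The deposited values were made by the authors as log2 ratios (base 2 assumed) of the 2 channels. How they were scanned, background-corrected and normalized is not given in the sources used here. Probes were named through the platform annotation (6269 probes with 1 symbol, 587 without). limma 3.58.1 in R 4.3.3 (lmFit, eBayes, dye orientation as a term) was run on 4958 probes with at least 2 values per orientation. Tests were two-sided, with Benjamini-Hochberg adjustment over all these probes and a threshold of 0.05. The fit was run on simulated data with independent noise on each array. Those data lacked the correlations between arrays described above, so they do not show how the fit behaves on the real arrays. The members, lists and alternatives were chosen with earlier results of these data known.

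Named genes follow a rule by role: the 4 smallest p, the highest and lowest estimates, any p under 0.05, 1 sign throughout, or several probes. The other member genes (Eef1a2, Eef2k, Eif2ak1, Eif2ak2, Eif4a1, Eif4a2, Eif4e2 and Eif4ebp1) were named after their values were seen, so that all 36 appear. Paralogue probes may share signal, and no probe sequence was used here.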

Additional observations from a re-analysis of the deposited data

How the results depend on the processing

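No member passed under any alternative run: turned signs, median centring with or without scaling, complete probes, averaging per gene, a fit lacking the dye term, robust moderation (statmod 1.5.0), array weights, a threshold of 0.1, or leaving out arrays. The smallest adjusted p in limma was 0.310 among these without a turned sign and 0.146 with one. The number of member probes above 0, 4 as deposited, was 11 with replicates 1 to 3 turned, 7 with centring and scaling, 19 with array weights, 26 without replicates 3 and 4, 7 turned without them, and from 2 to 16 with 1 replicate left out (2 without replicate 1, 16 without replicate 3); the cause was not tested. The median of the members, -0.18, ran from -0.28 without replicate 1 to 0.04 without replicates 3 and 4. Array weights gave -0.0061, with weights of 0.10 and 0.31 on replicates 3 and 4, and scaling -0.05. Of 38 probes, 24 changed the sign of their estimate without replicates 3 and 4, 17 with array weights, 14 without replicate 3, 11 turned and 3 with scaling. No scaling moved the median of all probes by as much as 0.1. No paired analysis was possible because each array holds 1 mutant against the same pool. Brightness over background is unknown, so dim probes could not be removed.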
